A study of Mus musculus with 10 samples.

Results

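The AMP-activated protein kinase (AMPK) is built from an α, a β and a γ subunit, and the mRNAs described here are those of its 7 subunit genes and of 3 genes for the kinases upstream of it. These 10 genes, of 21853 protein-coding genes listed, were taken by name: Prkaa1 and Prkaa2 for α, Prkab1 and Prkab2 for β, Prkag1, Prkag2 and Prkag3 for γ, Stk11 and Strada for the LKB1 complex, and Camkk2. Of the 10, 9 passed the filter on low values and were tested, as did 12060 of all genes. AMPK responds to a falling energy charge, when AMP and ADP bind its γ subunit and an upstream kinase phosphorylates the activation loop of its α subunit. LKB1, encoded by Stk11, is the usual upstream kinase and acts together with the pseudokinase that Strada encodes, while CaMKK2 answers to calcium. The β subunit joins the trimer and binds glycogen, the polymer that glycogen synthase (Gys1) makes, and the lines set losses of Gys1 and of AMPK beside each other.

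mRNA of mouse embryonic stem cells (ESCs) was sequenced in 10 libraries, 2 for each of 5 lines that the labels trace to the J1 line. Naïve ESCs (genotype WT) grew on gelatin in a medium with 15% FBS, 1000 U/ml mLIF, the MEK inhibitor PD0325901 at 1 μM and the GSK3 inhibitor CHIR99021 at 3 μM. Primed ESCs (PJ1, also WT) grew on Matrigel in serum replacement with bFgf at 10 ng/ml and Activin at 20 ng/ml, so that the primed state and its medium cannot be told apart. AKO (AMPK KO), DKO (AMPK, GYS1 KO) and GKO (GYS1 KO) were made from J1, and the labels give no medium of their own for them. GKO carries an indel from Cas9 and a guide against Gys1. For the AMPK knockout, J1 cells received a commercial CRISPR plasmid and a repair plasmid with an RFP reporter, both directed at the α1 gene Prkaa1, and RFP-positive cells were sorted. The α2 gene Prkaa2 was not a target, so that AKO and DKO are lines targeted at α1 and not at every α subunit gene. Which clones the libraries came from is not stated, and differences between clones and between genotypes cannot be told apart. Nothing states that the libraries of a line came from separate cultures, so the p-values below measure only the spread between these samples, which may be technical.

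The labels were set beside 2 lists of marker genes. A list of 10 naïve pluripotency genes summed to 1719 and 1681 TPM for naïve ESCs, 1740.5 and 1731 TPM for AKO, 1925 and 1923 TPM for DKO, and 1884 and 1965 TPM for GKO. The sums were 137.3 and 139.3 TPM in the primed libraries, where Dppa3 was listed at 0. DKO and GKO were thus above naïve ESCs in this sum, but not in each gene of it. Zfp42 overlapped between GKO (459.5 and 468.8 TPM) and naïve ESCs (474.4 and 458.0 TPM). TPM is the share of a transcript in a library after correction for its length, so levels of different genes can be set side by side. Between lines, TPM also depends on the other transcripts of each library, and it keeps no record of sequencing depth. The 10 primed pluripotency genes summed to 306.6 and 292.6 TPM for naïve ESCs, 351.9 and 322.7 TPM for AKO, 153.3 and 157.1 TPM for DKO, 190.5 and 185.9 TPM for GKO, and 506.5 and 471.1 TPM for primed ESCs, with Lefty2 most abundant outside primed ESCs and Dnmt3b in them. Without Lefty2 the sums were 69.0 and 67.7 TPM for naïve ESCs, 59.4 and 58.3 TPM for AKO, 57.1 and 59.2 TPM for DKO, 93.4 and 91.3 TPM for GKO, and 427.3 and 455.7 TPM for primed ESCs. GKO was thus above naïve ESCs in the sum of the rest of the list, but not in each gene of it. Zic2 was at 33.7 and 33.3 TPM for GKO against 14.4 and 13.7 TPM for naïve ESCs. Sox3 was lower, at 1.24 and 0.909 TPM for GKO against 2.61 and 2.12 TPM for naïve ESCs, and Otx2 and Dnmt3b overlapped between these lines. Lefty2 and T, both on that list, were higher in naïve ESCs (237.5 and 225.0 TPM, and 15.7 and 14.5 TPM) than in primed ESCs (79.2 and 15.4 TPM, and 8.97 and 0.786 TPM). The primed libraries also differed from each other in other markers, with Fgf5 at 10.7 and 0.447 TPM and Cer1 at 9.80 and 0.484 TPM. DKO and GKO stood apart from the other lines in a way their labels do not give: the Y-linked gene Eif2s3y was listed at 0 in the naïve, AKO and primed libraries and was at 37.3 and 37.4 TPM for DKO and at 41.5 and 38.0 TPM for GKO. The comparisons of AKO and of primed ESCs with naïve ESCs hold only libraries without this mRNA, and those of DKO and GKO with naïve ESCs and of DKO with AKO set libraries with it against libraries without it. Whether the lines come from the same stock of J1 cells is not stated. Among the naïve, AKO, DKO and GKO libraries the Gys1 label and the presence of this mRNA go together and cannot be told apart. Its part in the results was not tested. The mRNA of Gys1 was at 11.5 and 10.8 TPM for naïve ESCs, 12.7 and 12.2 TPM for AKO, 12.1 and 11.7 TPM for DKO, 9.70 and 9.98 TPM for GKO, and 13.6 and 14.3 TPM for primed ESCs. It was not called in DKO against AKO (-0.05, adjusted p = 0.508) or in GKO against naïve ESCs (-0.16, adjusted p = 0.05002), the latter next to the threshold and called, among others, without the filter (adjusted p = 0.0373). The Gys1 knockout is thus taken from the labels and was not seen as a loss of its mRNA.

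Prkaa1 encodes α1, the catalytic subunit that the knockout was aimed at. It was at 15.5 and 16.6 TPM in the libraries of naïve cells, 7.24 and 6.94 for AKO, 2.30 and 2.04 for DKO, 12.2 and 12.0 for GKO and 13.4 and 13.7 for primed cells. From high to low the order was naïve, primed, GKO, AKO and DKO, with no overlap between neighbours, and every library of the targeted lines lay below every library of the other lines. AKO thus kept 44.2% of the naïve mean and DKO 13.5%. Reads of a disrupted allele still count for the gene, so these shares do not measure how many alleles were hit, and in bulk RNA fewer cells with the mRNA and less mRNA per cell cannot be told apart. Set directly against AKO, DKO was lower by a further step (log2 fold change -1.35, SE 0.07, adjusted p = 3.39e-06 from limma on log2(TPM + 1), a scale that understates the change of low genes). GKO, a knockout line in which Prkaa1 was not a target, also had less of this mRNA than naïve ESCs (-0.38, SE 0.07, adjusted p = 0.00155). Prkaa1 lies on chromosome 15, where the tested genes had a median difference of -0.15 in GKO and -0.16 in DKO. Prkaa1 itself was at -2.43 in DKO. Centring each library on the median level of each chromosome, here called level centring, took off -0.24 in GKO and left -0.14, not called (adjusted p = 0.153). Centring on the median deviation of its genes from their own means, here called deviation centring and chosen after seeing the data, took off -0.18 and left -0.21, which was called (adjusted p = 0.0394). In primed ESCs Prkaa1 was lower by a smaller step (-0.23, adjusted p = 0.0121), a call that was lost after rescaling TPM to a common sum of the listed genes (-0.06, adjusted p = 0.492), after level centring (-0.04, adjusted p = 0.660) and deviation centring (-0.03, adjusted p = 0.719) and without the second naïve library (-0.18, adjusted p = 0.0961).

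Prkaa2 encodes α2, the other catalytic isoform. Its level was 2.39 and 2.41 TPM in the libraries of naïve cells, 2.71 and 2.44 for AKO, 3.29 and 3.10 for DKO, 3.27 and 3.29 for GKO and 8.30 and 9.38 for primed cells. The primed libraries stood far above the rest, DKO and GKO overlapped with each other above naïve ESCs and AKO, and the AKO libraries lay just above the naïve ones. In primed ESCs Prkaa2 rose by 1.53 on the log2 scale (SE 0.08, adjusted p = 1.67e-07), a mean TPM 3.69 times that of naïve ESCs. The rises in DKO (0.30, adjusted p = 0.0136) and GKO (0.33, adjusted p = 0.00785) were smaller, and both calls were lost under quantile normalization (0.22 and 0.20, adjusted p = 0.0567 and 0.0708). The DKO call was also lost without either naïve library (0.30 and 0.31, adjusted p = 0.0680 and 0.0599) or without the first DKO library (0.27, adjusted p = 0.0784).

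Since TPM allows levels of different genes to be added, the α mRNA of a library is the sum of Prkaa1 and Prkaa2. It came to 18.5 ± 0.846 TPM for naïve ESCs, 9.66 ± 0.402 for AKO, 5.37 ± 0.322 for DKO, 15.3 ± 0.123 for GKO and 22.4 ± 0.967 for primed ESCs (SD, n = 2 per line). The share of Prkaa2 in that sum was 13.4% and 12.7% in the naïve libraries, 27.2% and 26.0% for AKO, 58.8% and 60.4% for DKO, 21.2% and 21.6% for GKO, and 38.3% and 40.7% for primed ESCs. DKO was thus the only one of the 5 lines in which α2 mRNA exceeded α1 mRNA, and this held in both of its libraries. The higher α2 share in AKO came with a Prkaa2 level that was not distinguished from naïve ESCs (0.07, adjusted p = 0.862), whereas in primed ESCs the sum itself was above that of naïve ESCs.

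**Figure D1:**
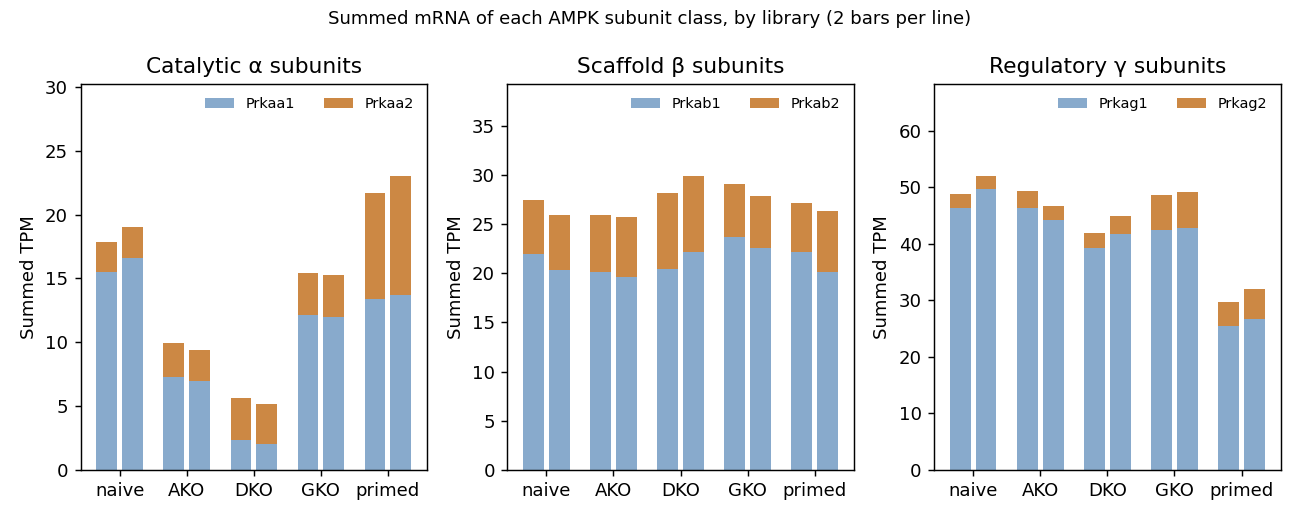
Summed TPM of the mRNAs of each AMPK subunit class, with 1 stacked bar per library and 2 bars per line. Prkaa2 makes up most of the α bar only in DKO, the β bars lie between 25.7 and 30.0 TPM in all 10 libraries, and the γ bars are shortest in primed ESCs, at 29.8 and 32.0 TPM.

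The α genes share few exact windows of sequence, which bears on how safely their reads can be told apart. Prkaa1 (ENSMUSG00000050697) lies at chr15:5173186-5211750 on the plus strand of GRCm39 and Prkaa2 (ENSMUSG00000028518) at chr4:104886845-104967102 on the minus strand, with 9 exons each in the canonical transcript. Of the 4751 windows of 31 bases in the Prkaa1 transcript, 5 also occur in another protein-coding gene, and all 5 are in Prkaa2. They come from a run of 35 identical bases in coding exon 1 of both genes, at chr15:5173390-5173449 and chr4:104966930-104966989 with the 25 bases that follow. The run is in capitals, and 4 of the 25 following bases differ between the genes.
Prkaa1: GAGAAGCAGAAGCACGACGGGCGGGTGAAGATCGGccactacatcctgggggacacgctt
Prkaa2: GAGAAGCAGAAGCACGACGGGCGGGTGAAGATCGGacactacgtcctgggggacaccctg
This run was the longest of the pairs of subunit genes compared, with 23 bases between Prkab1 and Prkab2, 15 bases between Prkag1 and Prkag2, 17 bases between Prkag2 and Prkag3 and 11 bases between Prkag1 and Prkag3. Sequence that is alike but not identical was not counted.

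The scaffold subunit β1 is encoded by Prkab1, the most even of the members. Its 10 values lay between 19.7 and 23.7 TPM, with GKO highest, then DKO, primed ESCs, naïve ESCs and AKO, and the ranges of DKO, primed and naïve ESCs overlapped. Prkab1 was not called in any of the 7 comparisons in which another member was called. Its difference of 0.13 between GKO and naïve ESCs (adjusted p = 0.150) was 0.24 and called with TPM rescaled to a common sum of the listed genes (adjusted p = 0.0106), and in primed ESCs -0.00 became 0.17 (adjusted p = 0.0361). With deviation centring both were 0.21 and called (adjusted p = 0.0213 and 0.0113).

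Prkab2 encodes β2, the isoform whose glycogen-binding domain is known for the tighter hold on glycogen. It was at 5.54 and 5.62 TPM in the libraries of naïve cells, 5.81 and 6.08 for AKO, 7.80 and 7.82 for DKO, 5.35 and 5.25 for GKO and 4.96 and 6.23 for primed cells. DKO was above every other library, while the remaining lines lay close together and the primed libraries spanned the naïve and AKO values. Prkab2 rose in DKO against naïve ESCs (0.42, SE 0.09, adjusted p = 0.00491) and against AKO (0.34, adjusted p = 0.0131), and it was lower in GKO than in DKO (-0.48, adjusted p = 0.00280). The rise over AKO was not called without the first AKO library (0.32, adjusted p = 0.0726) or without the first or the second DKO library (0.35 and 0.34, adjusted p = 0.0567 and 0.0592). The summed β mRNA was 26.7 ± 1.08 TPM for naïve ESCs, 25.8 ± 0.122 for AKO, 29.1 ± 1.23 for DKO, 28.5 ± 0.880 for GKO and 26.7 ± 0.594 for primed ESCs (SD, n = 2 per line). The β sum therefore varied much less between lines than the α sum, and for each TPM of α mRNA there was 1.45 TPM of β mRNA in naïve ESCs, 2.67 in AKO, 5.44 in DKO, 1.86 in GKO and 1.20 in primed ESCs.

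Among the γ subunits, which bind the adenine nucleotides, Prkag1 (γ1) was the most abundant AMPK subunit mRNA in each library. It was at 46.3 and 49.7 TPM in the libraries of naïve cells, 46.3 and 44.1 for AKO, 39.2 and 41.7 for DKO, 42.5 and 42.8 for GKO and 25.5 and 26.7 for primed cells. The naïve and AKO libraries overlapped at the top, GKO and DKO followed, and the primed libraries were well below all others. Prkag1 fell by 0.86 in primed ESCs (SE 0.05, adjusted p = 6.05e-07), to 54.3% of the naïve mean. Its difference from naïve ESCs was -0.24 in DKO (adjusted p = 0.00631) and -0.17 in GKO (adjusted p = 0.0312). Prkag1 lies on chromosome 15 as Prkaa1 does, and neither value was called with level centring (-0.06 in DKO, adjusted p = 0.368, and 0.07 in GKO, adjusted p = 0.250) or with deviation centring (-0.07, adjusted p = 0.310, and 0.01, adjusted p = 0.848). The sign was turned in GKO by both. Both differences missed the threshold without the second naïve library (-0.19 in DKO, adjusted p = 0.0611, and -0.12 in GKO, adjusted p = 0.209). The GKO call was also lost under each of the 3 other scalings (adjusted p = 0.0560 to 0.576), without the filter (adjusted p = 0.0574), without the intensity trend (adjusted p = 0.0529) and without either GKO library (-0.16 and -0.17, adjusted p = 0.115 and 0.0972).

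Prkag2 (γ2), with a long amino-terminal extension in its longest form, was present at much lower levels. It was at 2.45 and 2.37 TPM in the libraries of naïve cells, 3.04 and 2.45 for AKO, 2.71 and 3.17 for DKO, 6.19 and 6.31 for GKO and 4.28 and 5.29 for primed cells. GKO was highest and did not overlap with primed ESCs, and both stood above DKO, AKO and naïve ESCs, of which DKO overlapped with AKO and AKO reached down to the naïve values. Prkag2 rose by 1.09 in GKO (SE 0.11, adjusted p = 7.99e-05), a mean TPM 2.59 times that of naïve ESCs, and by 0.76 in primed ESCs (adjusted p = 0.000188), or 0.47 under quantile normalization (adjusted p = 0.00305). It was not called in DKO (0.20, adjusted p = 0.166), and the direct comparison put GKO above DKO by 0.88 (SE 0.11, adjusted p = 0.000348). Its reference gene at chr5:25067728-25306439 has 15 coding transcripts, which a gene-level TPM does not separate. Some markers of other cell types were also higher in GKO. The 7 trophectoderm genes summed to 62.1 and 63.0 TPM for GKO, with Tfap2c most abundant, against 36.9 and 37.2 TPM for naïve ESCs, 33.8 and 35.1 TPM for AKO, 41.7 and 43.6 TPM for DKO, and 30.9 and 20.2 TPM for primed ESCs. Of these genes, Cdx2 was at 6.62 and 7.27 TPM for GKO and 6.73 and 6.86 TPM for DKO against 2.57 and 2.66 TPM for naïve ESCs. Hand1 was at 0.575 and 1.04 TPM for GKO against 0.095 and 0.024 TPM for naïve ESCs, Eomes at 17.7 and 17.0 TPM for GKO against 19.8 and 20.3 TPM for naïve ESCs, and Elf5 at 0.182 and 0.018 TPM for GKO. The 7 fibroblast genes summed to 9.54 and 10.7 TPM for GKO, 3.86 and 3.25 TPM for naïve ESCs, 3.46 and 3.56 TPM for AKO, 3.40 and 3.43 TPM for DKO, and 9.57 and 15.8 TPM for primed ESCs. Thy1 was the most abundant of them in each library except the first primed one. It was at 7.14 and 8.48 TPM for GKO against 3.00 and 2.44 TPM for naïve ESCs. Pdgfrb was at 1.569 and 1.498 TPM for GKO and 1.026 and 0.992 TPM for DKO against 0.394 and 0.370 TPM for naïve ESCs. Col1a1 was at 0.739 and 0.724 TPM for GKO against 0.284 and 0.210 TPM for naïve ESCs. The other collagens of the list were not higher in GKO. Col1a2 was at 0.086 and 0.014 TPM for GKO against 0.035 and 0.108 TPM for naïve ESCs, and Col3a1 at 0.006 and 0 TPM in both lines. Dcn and Lum were listed at 0 in both GKO libraries and both primed libraries. The part of these genes in the Prkag2 result was not tested.

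Prkag3 (γ3), known from skeletal muscle, stayed at or under 0.038 TPM in each library, was listed at 0 in the first AKO and the second GKO library, and did not pass the filter for testing. A list of 6 skeletal muscle genes summed to at most 0.308 TPM outside primed ESCs and to 1.48 and 1.63 TPM in them, most of it Acta1. The γ mRNA summed to 50.4 ± 2.34 TPM for naïve ESCs, 48.0 ± 1.96 for AKO, 43.4 ± 2.12 for DKO, 48.9 ± 0.252 for GKO and 30.9 ± 1.56 for primed ESCs (SD, n = 2 per line). Prkag2 held 5.03% and 4.56% of it in naïve ESCs, 12.7% and 12.8% for GKO, and 14.4% and 16.5% for primed ESCs. In GKO the sum was thus close to that of naïve ESCs with a larger share of Prkag2, and in primed ESCs the sum was smaller and that share larger. The ratio of γ to α mRNA was 2.73 and 2.73 in the naïve libraries, 4.96 and 4.97 for AKO, 7.49 and 8.74 for DKO, 3.16 and 3.22 for GKO, and 1.37 and 1.39 for primed ESCs, 5 ranges that do not overlap. Rescaling a library leaves a ratio within it as it is.

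**Figure D2:**
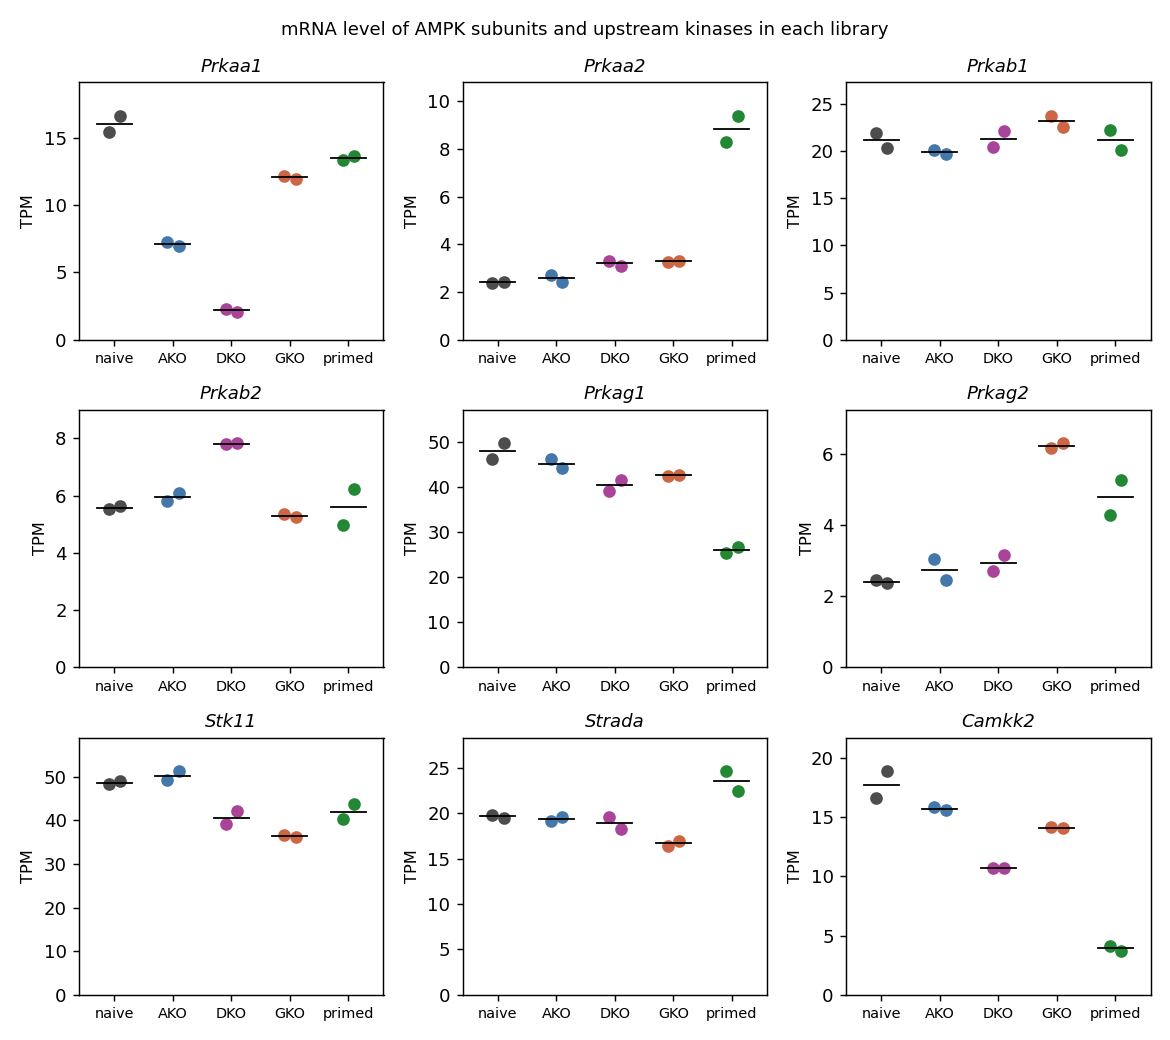
TPM of the 9 members that passed the filter, with 1 point per library, a horizontal bar at the mean of the 2 libraries of a line, and each vertical axis starting at 0. Prkaa1 is lowest in DKO at 2.30 and 2.04 TPM, Prkag2 is highest in GKO at 6.19 and 6.31 TPM, and Camkk2 is lowest in primed ESCs at 4.12 and 3.71 TPM.

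Stk11 encodes LKB1, the kinase that activates AMPK and a family of related kinases. It was at 48.2 and 49.0 TPM in the libraries of naïve cells, 49.2 and 51.3 for AKO, 39.2 and 42.1 for DKO, 36.6 and 36.1 for GKO and 40.3 and 43.8 for primed cells. AKO and naïve ESCs were highest and GKO was lowest, with primed ESCs and DKO overlapping in between. Stk11 fell in GKO by 0.41 (SE 0.06, adjusted p = 0.000333), to 74.8% of the naïve mean, and in DKO by 0.25 (adjusted p = 0.00512). DKO also lay below AKO (-0.30, adjusted p = 0.00218), so that both lines labelled as Gys1 knockouts had less Stk11 mRNA than the line of the same AMPK label with Gys1 intact, a split that the Y-linked mRNA follows too. The interaction of the knockouts, which asks whether these effects differ, was 0.11 for Stk11 (SE 0.08, adjusted p = 0.339). In primed ESCs the value of -0.21 (adjusted p = 0.00683) was -0.01 under quantile normalization (adjusted p = 0.859) and -0.04 after rescaling (adjusted p = 0.611), neither of them called, and -0.37 with level centring (adjusted p = 0.000187) but -0.12 and not called with deviation centring (adjusted p = 0.0730).

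Strada encodes the pseudokinase that binds LKB1 and holds it in its active form. It was at 19.8 and 19.5 TPM in the libraries of naïve cells, 19.1 and 19.7 for AKO, 19.6 and 18.3 for DKO, 16.5 and 17.0 for GKO and 24.7 and 22.4 for primed cells. Primed ESCs were above and GKO below the 3 remaining lines, which overlapped in turn. The rise in primed ESCs (0.25, SE 0.06, adjusted p = 0.00433) turned to -0.08 with level centring and to -0.07 with deviation centring on chromosome 11, where the gene lies and the median log2 fold change was 0.30. After rescaling it was 0.41 (adjusted p = 0.000311). The fall in GKO (-0.22, adjusted p = 0.0140) was -0.09 with level centring, -0.15 with deviation centring and -0.10 after rescaling, and was not called in any of them (adjusted p = 0.256, 0.0730 and 0.243). It was also lost without the first or the second naïve library (adjusted p = 0.0735 and 0.0574) and without the first GKO library (adjusted p = 0.0806). Strada shares 4.33% of its windows of 31 bases with other genes, more than any other member.

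Camkk2 encodes the calcium-dependent kinase that activates AMPK without LKB1. Its level was 16.6 and 18.9 TPM in the libraries of naïve cells, 15.9 and 15.5 for AKO, 10.7 and 10.7 for DKO, 14.1 and 14.1 for GKO and 4.12 and 3.71 for primed cells. The order was naïve, AKO, GKO, DKO and primed, and no neighbours overlapped. In primed ESCs Camkk2 fell by 1.93 on the log2 scale (SE 0.07, adjusted p = 1.95e-08), to 22.1% of the naïve mean. It fell by 0.68 in DKO (adjusted p = 0.000129) and by 0.31 in GKO (adjusted p = 0.00686), and DKO was below both AKO (-0.51, adjusted p = 0.000532) and GKO, the latter by a difference of 0.37 (adjusted p = 0.00357). The GKO fall was not called after rescaling (-0.19, adjusted p = 0.0758) or without the second naïve library (-0.22, adjusted p = 0.0647). For each TPM of Camkk2 there were 2.91 and 2.60 TPM of Stk11 in the naïve libraries, 3.10 and 3.30 for AKO, 3.67 and 3.92 for DKO, 2.59 and 2.57 for GKO, and 9.78 and 11.8 for primed ESCs. Stk11 mRNA therefore outweighed Camkk2 mRNA in each of the 10 libraries, by the widest margin in primed ESCs.

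Taken by comparison, AKO against naïve ESCs asks what the targeting of Prkaa1 alone goes with. Of the 9 members tested, 1 was called, Prkaa1, beside 0.224% of all 12060 genes tested. The other 8 members lay between -0.16 for Camkk2 (adjusted p = 0.494) and 0.13 for Prkag2 (adjusted p = 0.781). The call of Prkaa1 itself was lost with only the AKO and naïve libraries in the fit (-1.07, adjusted p = 0.0601). The 27 genes called were 3 without the first naïve library, 2 without the second, 1 without the first AKO library, 3 without the second, and 8 with the replicate number as a block.

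In DKO against naïve ESCs, 6 of the 9 were called, Prkaa2 and Prkab2 higher and Prkaa1, Prkag1, Stk11 and Camkk2 lower, beside 46.0% of all genes tested. In DKO against AKO, which asks what the Gys1 knockout goes with where Prkaa1 is targeted, 6 were called in the same directions, beside 46.3% of all genes. Under that comparison the value of Prkaa2 was 0.23 (adjusted p = 0.0405) and that of Prkag1 was -0.16 (adjusted p = 0.0404), and neither was called without any 1 of the first AKO, the second AKO or the first DKO library (adjusted p = 0.0572, 0.204 and 0.169 for Prkaa2 and 0.204, 0.0667 and 0.213 for Prkag1). Prkaa2 was not called without the second DKO library either (adjusted p = 0.0823), nor with the replicate number as a block (0.0576) or only the AKO and DKO libraries in the fit (0.0531). Both calls were lost without the filter (adjusted p = 0.0608 for Prkaa2 and 0.0709 for Prkag1), under quantile normalization (0.171 and 0.265), with level centring (0.0784 and 0.787) and with deviation centring (0.0908 and, with the sign of Prkag1 turned to 0.04, 0.545). That of Prkag1 was also lost after rescaling (0.339) and without the intensity trend (0.0667). The count was 3 without the first AKO or the first DKO library. In GKO against naïve ESCs, 7 of the 9 were called, 2 higher and 5 lower, beside 51.7% of all genes. The count was 2 higher and 2 lower with level centring or without the second naïve library, 3 higher and 3 lower with deviation centring, and 3 higher and 2 lower after rescaling. In primed against naïve ESCs, 7 of the 9 were called, 3 higher and 4 lower, beside 80.0% of all genes. These became 4 higher and 2 lower after rescaling, 2 higher and 3 lower with level centring, and 3 higher and 2 lower with deviation centring. With rescaling, the median of all genes in that comparison moved from -0.05 to 0.10. These comparisons share the naïve libraries, and with so many genes called in the background, the counts of called members in DKO, GKO and primed ESCs are not set apart by their size.

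**Figure D3:**
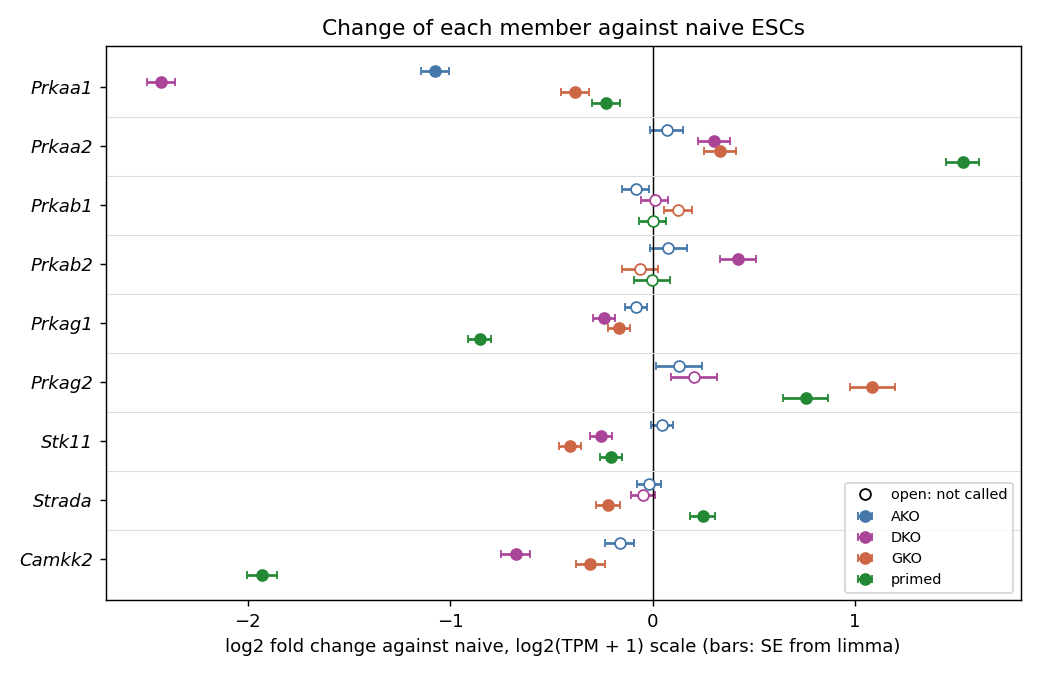
Log2 fold change of the 9 tested members in AKO, DKO, GKO and primed ESCs against naïve ESCs, on the log2(TPM + 1) scale, bars for the SE from limma, and filled points where the adjusted p was under 0.05. The widest changes are Prkaa1 in DKO at -2.43, Camkk2 in primed ESCs at -1.93 and Prkaa2 in primed ESCs at 1.53, and 2 of the filled points change sign with level centring, Prkag1 in GKO and Strada in primed ESCs.

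GKO against DKO asks what the AMPK knockout goes with where Gys1 is targeted in both lines. Of the 9 members, 6 were called, Prkaa1, Prkag2 and Camkk2 higher in GKO and Prkab2, Stk11 and Strada lower, beside 43.5% of all genes. The values of Stk11 (-0.16, adjusted p = 0.0481) and Strada (-0.17, adjusted p = 0.0463) lay next to the threshold, and 3 higher and 1 lower were left under each of the 3 other scalings and with either centring. Stk11 was not called without the second DKO library or either GKO library, with adjusted p between 0.128 and 0.256, and Strada without any 1 of the 4 libraries, with adjusted p between 0.0556 and 0.228. Both were also lost without the filter (adjusted p = 0.0875 and 0.0726) and without the intensity trend (0.0777 and 0.0584). Strada was also lost with the replicate number as a block (0.0570) and with only the GKO and DKO libraries in the fit (0.0518). The interaction, the difference by Gys1 label in AMPK-targeted cells minus that in AMPK-intact cells, was called for 3 of the 9 members, beside 25.8% of all genes. It was -0.97 for Prkaa1 (SE 0.10, adjusted p = 0.000291), since the step from AKO to DKO was larger than that from naïve ESCs to GKO. It was -1.01 for Prkag2 (SE 0.16, adjusted p = 0.00236), whose rise in GKO had no counterpart of that size in DKO against AKO (0.07, adjusted p = 0.622). The value of 0.41 for Prkab2 (SE 0.13, adjusted p = 0.0468) was not called under any of the 3 other scalings (adjusted p = 0.0562 to 0.0923), with a pseudocount of 0.1 (0.0540), without the filter (0.104), with deviation centring (0.0642), with the replicate number as a block (0.0512) or without any 1 of the 8 libraries (adjusted p = 0.0879 to 0.132). The 3116 genes called for the interaction were 1944 and 1993 without the first or the second naïve library, 2071 without the first AKO library, 2062 without the second DKO library and 2071 without the first GKO library.

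When AKO and DKO were pooled as AMPK-targeted lines against naïve ESCs and GKO, 4 libraries against 4, limma called 0 of the 9 members and 0% of all 12060 genes. At an unadjusted p under 0.05 there were 2 members and 10.5% of all genes. The 2 lines of a side differ from each other in that fit and this widens its spread, as for Prkaa1 (-1.56, SE 0.35, adjusted p = 0.458).

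Beyond the members, 75 other genes of the pathway in 5 lists were examined, of which 69 passed the filter. In AKO 0 of the 69 were called by limma, with 11 at an unadjusted p under 0.05, beside 1231 of all 12060 genes. In DKO against naïve ESCs 9 were higher and 18 lower, in GKO 23 higher and 14 lower, and in primed ESCs 31 higher and 26 lower. These are 39.1%, 53.6% and 82.6% of the 69, beside 46.0%, 51.7% and 80.0% of all genes tested. Their median absolute log2 fold change was 0.18 in DKO, 0.26 in GKO and 0.59 in primed ESCs, beside 0.21, 0.24 and 0.55 over all genes tested. GKO against DKO had 27 higher and 7 lower, with a median of 0.17 beside -0.01 over all genes, DKO against AKO had 13 higher and 19 lower, and the interaction had 6 higher and 13 lower, or 49.3%, 46.4% and 27.5% beside 43.5%, 46.3% and 25.8% of all genes.

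The list of other upstream partners holds 6 genes, the STRAD and MO25 relatives of the LKB1 complex, Camkk1, and the kinase TAK1 with its activator. In DKO 2 were higher and 2 lower, in GKO 3 higher and 2 lower, and in primed ESCs 1 higher and 1 lower, or 66.7%, 83.3% and 33.3% of them, beside 46.0%, 51.7% and 80.0% of all genes. Stradb, the paralog of Strada, was at 2.85 and 3.16 TPM for naïve ESCs, 4.88 and 3.74 TPM for DKO, and 6.39 and 5.97 TPM for GKO, and it rose in GKO by 0.84 (SE 0.13, adjusted p = 0.000879). Stradb thus moved opposite to Strada in GKO. The fall of Strada there lost its call after rescaling, with either centring and without either naïve library or the first GKO library. Cab39l, 1 of the MO25 genes, rose in primed ESCs from 5.69 and 5.70 TPM to 13.6 and 14.0 TPM (1.14, adjusted p = 1.62e-07), and by 0.50 with level centring and 0.62 with deviation centring on chromosome 14, where it lies (adjusted p = 5.63e-05 and 1.37e-05). Its paralog Cab39 was not called there (0.06, adjusted p = 0.239), but was called under each of the 3 other scalings (0.12 to 0.25, adjusted p = 0.00123 to 0.0394). Tab1, the TAK1 activator, fell in DKO by 0.66 (adjusted p = 0.000172) and in GKO by 0.32 (adjusted p = 0.00704). It lies on chromosome 15, and its GKO call was lost with level centring (-0.08, adjusted p = 0.490) and deviation centring (-0.14, adjusted p = 0.175) and without the first naïve or the first GKO library (-0.26 and -0.28, adjusted p = 0.0614 and 0.0509). After rescaling the GKO value was -0.21 (adjusted p = 0.0478).

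The 12 AMPK-related kinases are further substrates of LKB1. In DKO 0 were higher and 3 lower, in GKO 4 higher and 3 lower, and in primed ESCs 6 higher and 2 lower, or 25%, 58.3% and 66.7% of them. Of all genes tested, 46.0%, 51.7% and 80.0% were called in these comparisons. Mark3 was at 21.2 and 22.8 TPM for naïve ESCs and at 15.6 and 14.2 TPM for GKO, a fall of 0.53 (adjusted p = 0.000146), and Mark4 fell in DKO by 0.52 (adjusted p = 0.00128). In primed ESCs Nuak1 rose by 1.94 (SE 0.18, adjusted p = 8.47e-06), from 1.41 and 1.21 TPM to 9.55 and 6.37 TPM, and Sik1 fell by 1.20 (adjusted p = 3.05e-08), from 27.9 and 27.7 TPM to 11.5 TPM in both libraries.

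Of the 10 regulators of AMPK, among them phosphatases, ubiquitin ligases and the folliculin complex, 0 were higher and 4 lower in DKO, 3 higher and 4 lower in GKO, and 5 higher and 4 lower in primed ESCs, or 40.0%, 70.0% and 90.0%. The shares over all genes tested were 46.0%, 51.7% and 80.0%. Mkrn1, a ubiquitin ligase known to act on the α subunits, was at 409.4 and 406.0 TPM for naïve ESCs and at 26.9 and 22.3 TPM for primed ESCs, a fall of 4.00 (SE 0.08, adjusted p = 4.58e-10). Ppm1a, a phosphatase of the α subunit, rose in GKO by 0.45 (adjusted p = 5.66e-05), from 34.8 and 34.5 TPM to 47.0 and 48.0 TPM, and lay at 34.5 and 33.8 TPM for DKO and at 51.2 and 48.7 TPM for primed ESCs.

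Of the 28 AMPK substrates tested, of 29 listed, 3 were higher and 7 lower in DKO, 7 higher and 4 lower in GKO, and 15 higher and 11 lower in primed ESCs, or 35.7%, 39.3% and 92.9%. Over all genes tested the shares were 46.0%, 51.7% and 80.0%. Foxo3, a transcription factor, was at 10.4 and 11.0 TPM for naïve ESCs, 11.6 and 9.87 TPM for AKO, 16.3 and 15.8 TPM for DKO, 18.0 and 18.4 TPM for GKO, and 16.2 and 16.1 TPM for primed ESCs. Against naïve ESCs Foxo3 rose in DKO (0.54, adjusted p = 0.000441), GKO (0.71, adjusted p = 8.12e-05) and primed ESCs (0.55, adjusted p = 9.44e-05). The autophagy kinase Ulk1 fell from 54.1 and 51.3 TPM for naïve ESCs to 9.20 and 9.53 TPM for primed ESCs (-2.37, adjusted p = 3.60e-10), and the lysosomal regulator Tfeb from 28.9 and 26.5 TPM to 1.33 and 1.89 TPM (-3.47, adjusted p = 7.27e-09).

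The list of adenine nucleotide balance, with the kinases and phosphatases that set AMP, ADP and ATP, had 13 of 18 genes tested. In DKO 4 were higher and 2 lower, in GKO 6 higher and 1 lower, and in primed ESCs 4 higher and 8 lower, or 46.2%, 53.8% and 92.3%. Beside these stand 46.0%, 51.7% and 80.0% of all genes tested. The mitochondrial creatine kinase Ckmt1 was at 2.03 and 2.13 TPM in the libraries of naïve cells, 1.88 and 2.09 for AKO, 13.0 and 14.4 for DKO, 16.5 and 16.6 for GKO and 1.29 and 1.40 for primed cells. The lines labelled as Gys1 knockouts, which are also those with the Y-linked mRNA, were thus far above the 3 others, with a rise of 2.25 in DKO (SE 0.08, adjusted p = 4.18e-07) and of 2.51 in GKO (adjusted p = 1.61e-07). The brain-type creatine kinase Ckb was at 187.3 and 173.6 TPM for naïve ESCs, 456.1 and 539.4 TPM for DKO, and 142.1 and 151.1 TPM for GKO, and so rose only in DKO of these lines (1.45, SE 0.20, adjusted p = 0.000430), with an interaction of 1.74 (adjusted p = 0.00254). Ak3, a mitochondrial nucleotide kinase, was at 5.23 and 5.02 TPM for naïve ESCs, 3.36 and 2.97 TPM for DKO, 8.98 and 8.84 TPM for GKO, and 21.3 and 20.6 TPM for primed ESCs. It fell in DKO by 0.56 (adjusted p = 0.000499) and rose in GKO by 0.69 (adjusted p = 0.000122), and its interaction was -1.25 (adjusted p = 0.000177). On chromosome 19, where Ak3 lies, level centring ended the DKO call (-0.23, adjusted p = 0.0828) and gave 1.11 in GKO (adjusted p = 3.07e-05). Deviation centring kept the DKO call (-0.28, adjusted p = 0.0225) and gave 1.12 (adjusted p = 1.55e-05).

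The genes most like each member were sought by Pearson's r of log2(TPM + 1) over the 10 libraries, which share their lines and are not independent points, so that r is given as a description. Arpc5 (0.973) was closest to Prkaa1, 9330182L06Rik (0.999), Ramp2 (0.997) and Cpt2 (0.997) were closest to Prkaa2, Aldh6a1 (0.975) was closest to Prkab2, and Wfdc2 (0.987) was closest to Prkag2. Wfdc2 had means of 5.18 TPM for naïve ESCs, 7.76 TPM for DKO, 28.0 TPM for GKO and 20.6 TPM for primed ESCs, the same order of GKO over primed ESCs over DKO as for Prkag2. Aldh6a1 had means of 6.21 TPM for naïve ESCs, 13.4 TPM for DKO and 4.85 TPM for GKO. The closest to Prkag1 were Arhgap8 (0.997) and Arc (0.995) on chromosome 15, where Prkag1 lies, and Map2k3 (0.994) on chromosome 11. Ctrl (0.906) was closest to Prkab1, Zfp945 (0.981) to Stk11, Ell2 (0.987) to Strada and Mapk14 (0.995) to Camkk2. Over the 8 libraries without primed ESCs, Uba3 (0.990) was closest to Prkaa1.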

How the data were processed

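The authors deposited TPM for each protein-coding gene of 10 libraries. Their processing notes name Trim Galore 0.6.6, STAR 2.7.9a, RSEM 1.3.3 and the builds GRCm38 and GRCh38, whereas their methods name GRCm39, and the tables hold no coordinates. The labels give a TruSeq Stranded mRNA kit and an Illumina sequencer, and the methods an MGI kit, so the kit is uncertain. The methods describe this step for naïve, GKO and primed cells and not for AKO and DKO, and whether all 10 were prepared together is not stated. Where transcripts are alike, RSEM estimates how reads divide between them. The number of reads behind a TPM was not known here, so no detection limit was derived. The listed TPM summed to between 500162 and 578952 per library.

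Genes that reached 1 TPM in 2 or more libraries (12060 of 21853, and 9 of the 10 members) were tested as log2(TPM + 1) with limma 3.58.1 in R 4.3.3, with a mean per line over all 10 libraries, an intensity trend and Benjamini-Hochberg adjustment within each comparison at 0.05, and the procedure was tested on simulated data. AMPK-targeted against AMPK-intact lines was a separate fit of 8 libraries. With 2 libraries against 2, no two-sided exact p under 0.333 is possible. Positions and sequences came from GRCm39 and its GENCODE annotation. From each list, up to 2 called genes higher and 2 lower, with 5 TPM in the higher line and no overlap, could be named, while Cab39 and the interaction values of Ckb and Ak3 were chosen after their values were seen. The members and lists were chosen with earlier results of these data known. Alternatives were another pseudocount, other filters, 3 other scalings, 2 kinds of chromosome centring, no trend, a replicate block, fewer libraries and a minimum fold change.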

Additional observations from a re-analysis of the deposited data

Results flagged for a closer look

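The difference by Gys1 label was not the same under both AMPK labels for 3 of the 9 members, beside 25.8% of all genes tested. These calls are from limma's test of the difference between DKO minus AKO and GKO minus naïve ESCs. The difference was -0.97 for Prkaa1, with -1.35 in the AMPK-targeted pair and -0.38 in the other. For Prkag2 it was -1.01, with 0.07 and 1.09, and for Prkab2 it was 0.41, with 0.34 and -0.06. The call of Prkab2 (adjusted p = 0.0468) was lost without any 1 of the 8 libraries (adjusted p = 0.0879 to 0.132), under the 3 other scalings (0.0562 to 0.0923), with a pseudocount of 0.1 (0.0540), without the filter (0.104), with deviation centring (0.0642) and with the replicate number as a block (0.0512). The clones behind the lines are not stated, so a difference between genotypes and a difference between clones cannot be told apart in any of them. In these lines the Gys1 label also goes together with the Y-linked mRNA, and Prkaa1 is itself the targeted gene.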

How the results depend on the processing

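For 72 results on members, the alternatives gave 1199 values, of which 1031 kept direction and call, 120 kept direction only and lost the call, 2 gained a call in the same direction and 46 turned in sign, among them Prkab1 in primed ESCs, which was called under rescaling (0.17, adjusted p = 0.0361) and deviation centring (0.21, adjusted p = 0.0113). The cause was not tested for any of them. Genes called in AKO moved from 27 to 13 with a pseudocount of 0.1, 54 without the filter, 17 with a filter at a mean of 5 TPM, 11 with level centring and 11 with deviation centring, 8 with the replicate block, 0 of limma with only the compared libraries, where 0 members were called and 2011 genes and 1 member had an unadjusted p under 0.05, and 1 to 3 without a library. With a log2 fold change of at least 1, genes and members called were 1 and 1 in AKO, 357 and 1 in DKO, 433 and 1 in GKO, 3355 and 2 in primed ESCs, 375 and 1 in DKO against AKO, 323 and 1 in GKO against DKO, and 349 and 1 for the interaction. Members called in GKO were 4 with level centring and 4 to 6 without a library, those in DKO against AKO 3 to 4, and interaction genes 1944 to 2400 without a library, against 3116. These values turned in sign. Under rescaling to a common sum they were 0.017 for Strada in DKO, 0.043 for Prkab2 in GKO, 0.17 for Prkab1 and 0.15 for Prkab2 in primed ESCs, 0.050 for Strada in DKO against AKO, -0.032 for Prkag1 in the interaction and -0.0067 for Prkaa2 in AMPK-targeted against AMPK-intact lines. Under level centring they were 0.033 and 0.030 for Strada in AKO and DKO, 0.0010 for Prkab2 and 0.074 for Prkag1 in GKO, 0.18 for Prkab1 and -0.080 for Strada in primed ESCs, and -0.093 for Prkag1 in the interaction. Under deviation centring, chosen after seeing the data, they were 0.011 for Strada in AKO, 0.013 for Prkag1 in GKO, 0.21 for Prkab1 and -0.072 for Strada in primed ESCs, and 0.041 for Prkag1 in DKO against AKO. Quantile normalization gave 0.056 for Prkab1 in primed ESCs, -0.00123 for Prkag2 in DKO against AKO, -0.020 for Prkaa2 in GKO against DKO and -0.018 for Prkag1 in the interaction. Median-ratio scaling gave 0.055 for Prkab1 and 0.046 for Prkab2 in primed ESCs and -0.010 for Prkag1 in the interaction. Without a library, Prkab1 lay between -0.046 and 0.065 in DKO, between -0.069 and 0.068 in primed ESCs and between -0.089 and 0.023 in the interaction. Prkab2 in primed ESCs lay between -0.14 and 0.14, Prkag2 and Strada in DKO against AKO between -0.039 and 0.19 and between -0.079 and 0.018, and Prkaa2 in GKO against DKO between -0.0034 and 0.061. Prkag1 in the interaction lay between -0.043 and 0.057, and Prkaa2 in AMPK-targeted against AMPK-intact lines between -0.037 and 0.078. Where a line kept 1 library, that library was assumed to vary like the other lines.

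The replicate numbers were only shared: the differences between replicates correlated by -0.128 to 0.078 between lines. With the replicate block, members called were 1 in AKO, 6 in DKO, 7 in GKO, 7 in primed ESCs, 5 in DKO against AKO, 5 in GKO against DKO and 2 for the interaction, and genes called were 8, 5382, 6046, 9573, 5409, 5034 and 2875. The block ended the calls of Prkaa2 in DKO against AKO, Strada in GKO against DKO and Prkab2 in the interaction, and changed no other call of a member. Crossing the numbers of DKO, chosen after seeing the data, gave 5477 genes and 6 members in DKO. Median-ratio scaling and rescaling moved the summed subunit levels by -5.67% to 7.74% and left the ratios within a library as they were. Depth is unknown, so that a low TPM such as that of Prkag3 has no stated precision.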

Other observations

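Besides the Y-linked Eif2s3y, Ddx3y was listed at 0 in the naïve, AKO and primed libraries and was at 22.9 and 20.9 TPM for DKO and at 8.11 and 7.83 TPM for GKO. Uty was at 7.05 and 6.24 TPM for DKO and at 2.364 and 2.354 TPM for GKO, and Kdm5d was listed at 0 in both DKO libraries and reached 0.005 TPM in 1 GKO library. Ddx3y and Uty were thus higher in DKO than in GKO, and the levels of Eif2s3y lay closer together.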
